A study of Homo sapiens with 4 samples.

Results

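The matrix metalloproteinase (MMP) genes of chromosome 11q22 were examined in ES2 ovarian cancer cells treated with liquiritigenin (Liq). The 9 members, MMP1, MMP3, MMP7, MMP8, MMP10, MMP12, MMP13, MMP20 and MMP27, were taken by gene symbol from a table of 23228 genes. Both members that ES2 cells transcribed at a level that could be tested were lower with Liq. MMP1, the most abundant transcript by read count in vehicle-treated cells, fell 3.45-fold, and MMP3 fell 2.29-fold. The other 7 members had 14 counts or fewer in every sample.

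ES2 is a long-established line of human ovarian cancer cells. Liq is a plant flavanone that the study used as an agonist of estrogen receptor beta. The comparison asked which transcripts Liq changes. Both groups were cultured without phenol red, in RPMI-1640 with charcoal-treated serum, and received either vehicle or Liq for 24 h. The Liq dose was 100 µM according to the methods of the study. RNA-seq was performed on 2 vehicle samples and 2 Liq samples, and nothing in the labels states that these came from separate cultures. The p-values therefore rest on the spread between these samples, which the model estimates with information from all tested genes. They do not measure a spread between cultures. All samples are of 1 cell line.

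MMPs are zinc-dependent proteases that are secreted as inactive pro-enzymes and degrade the extracellular matrix after the pro-peptide is removed. Within the cluster, MMP1, MMP8 and MMP13 are the collagenases that cut fibrillar collagen, and MMP3 and MMP10 are the stromelysins, which cut a wide range of matrix proteins and can activate other pro-MMPs. MMP7 is matrilysin, a short member without the hemopexin-like domain. MMP12 is the macrophage elastase, MMP20 (enamelysin) processes enamel proteins, and MMP27 is a little-studied member. The tissue inhibitors of metalloproteinases (TIMPs) bind and block the active enzymes. Transcription of several members is known to be induced by cytokines and growth factors through AP-1, a dimer of FOS and JUN family proteins, and ETS factors. In ovarian cancer, MMPs are studied for their part in invasion of the peritoneal lining.

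Between 34573053 and 48933893 reads per sample were assigned to genes, and 3 counts corresponded to 0.0613 to 0.0868 counts-per-million units (CPM). Of the listed genes, 17274 had a count and 13546 passed the filter on low counts and were tested. The samples of a group differed by more than sampling noise (chi-square per degree of freedom of 6.33 for the vehicle pair and 11.13 for the Liq pair), so none was counted as a duplicate. Of the labelled epithelial origin, the adhesion gene EPCAM had 3 counts or fewer in each sample and CDH1 (E-cadherin) had none, whereas the keratin gene KRT18 was at 166 to 204 CPM and the mesenchymal marker VIM (vimentin) at 7604 and 7353 CPM in vehicle and 6480 and 5871 CPM in Liq. Summed over 10 epithelial markers, the level was 459 to 499 CPM in vehicle and 531 to 577 CPM in Liq, and summed over 5 mesenchymal markers it was 15243 to 15830 CPM in vehicle and 13139 to 13879 CPM in Liq. The mesenchymal sum was mostly VIM and FN1, with means of 7479 and 7727 CPM in vehicle. Of the 5 mesenchymal markers, all tested, none was called. On the log2 scale VIM was at -0.28, FN1 at -0.15, ZEB1 at 0.01, CDH2 at 0.22 and SNAI2 at 0.38. Among the 5 tested epithelial markers, KRT7 was at 0.51 (adjusted p = 1.081e-05, under 1.5-fold), KRT8 at 0.13 and KRT18 at -0.24, and the low-level PAX8 and WT1 were lower with Liq (log2 fold change of -1.34 and -0.68; WT1 was at -0.56 and not called without vehicle replicate 2). The part of these markers in the results for MMP1 and MMP3 was not tested. Of 8 leukocyte markers, MPO, ELANE, S100A8 and CD3E had 0 counts in all samples. CD68 was at 74.2 and 67.8 CPM in vehicle and at 77.4 and 66.4 CPM in Liq. The list without CD68 summed to 0.279 to 0.681 CPM. In bulk RNA, fewer cells that express a gene and less transcript per cell cannot be told apart.

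The cluster spans 435.2 kb of chromosome 11 (hg19, positions 102391239 to 102826461), and all members lie on the minus strand. In order of position they are MMP7, MMP20, MMP27, MMP8, MMP10, MMP1, MMP3, MMP12 and MMP13. MMP1 (102660132 to 102668891, 10 exons) lies 8772 bases from MMP10 and 37640 bases from MMP3 (102706532 to 102714340, 10 exons). The exons of MMP1 overlap those of the pseudogene WTAPP1, on the opposite strand, by 150 of 1971 bases (7.61%). WTAPP1 has no row in the count tables, and whether the counting used strand was not stated, so reads from these 150 bases cannot be told apart. On the same strand, no stretch of 100 bases, the read length, was shared between a member's longest transcript and the annotated transcripts of another gene, although MMP3 and MMP10 shared 59 stretches of 50 bases.

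Promoter sequence from RefSeq was matched for 5 of the 9 members, MMP7, MMP8, MMP10, MMP20 and MMP27; MMP1, MMP3, MMP12 and MMP13 had no match. The 250 bases before each start site were searched on both strands for 6 motifs, none of which overlapped another where found. The AP-1 motif was searched as TGANTCA, and the PEA3 motif, an ETS site, was searched as AGGAAG. The letters of the TATA box were TATAAA, and those of the antioxidant response element were TGACNNNGC. The NF-kB site and the full palindromic estrogen response element were searched by their common consensus. The AP-1 letters were found in MMP7, MMP10 and MMP20, and in 6.57% of 35116 promoters of the same length. In both MMP7 and MMP10 they lay 67 to 61 bases before the start, with TATAAA 30 to 25 bases before it in MMP7 and 31 to 26 in MMP10. Since MMP1 and MMP3 had no match, the promoters of tested and untested members could not be compared. The last 120 bases before the start of the 3 promoters with AP-1 letters are printed here, with those letters in capitals.
MMP7 (GRCh38.p14 chr11:102530748-102530867, minus strand): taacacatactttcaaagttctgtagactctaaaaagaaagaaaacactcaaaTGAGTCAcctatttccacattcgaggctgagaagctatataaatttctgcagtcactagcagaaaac
MMP10 (GRCh38.p14 chr11:102780629-102780748, minus strand): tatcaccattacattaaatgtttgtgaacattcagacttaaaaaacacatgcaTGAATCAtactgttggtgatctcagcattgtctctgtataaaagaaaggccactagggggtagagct
MMP20 (GRCh38.p14 chr11:102625333-102625452, minus strand): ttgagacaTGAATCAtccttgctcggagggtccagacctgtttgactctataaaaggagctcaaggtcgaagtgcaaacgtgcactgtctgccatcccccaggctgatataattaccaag
In MMP20 the AP-1 letters lay 112 to 106 bases before the start. PEA3 letters were found at 2 places in MMP7 and in no other of the 5 promoters (28.7% of all promoters hold them), and TGACNNNGC was found only in MMP27 (10.9%). TATAAA was also found in MMP20 and MMP8 (10.7%). No promoter of the 5 held the NF-kB or the estrogen response letters, which were present in 0.527% and 0.0399% of all promoters. A match is a description of letters and not evidence of binding.

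MMP1, interstitial collagenase, was counted 851846 and 783176 times in vehicle and 212522 and 306456 times after Liq. After scaling for library size and composition (trimmed mean of M values, TMM), these were 20718 and 20920 CPM in vehicle against 5976 and 6106 CPM in Liq. The groups were far apart and the samples of a group nearly equal. Mean levels were 20819 ± 142 CPM with vehicle against 6041 ± 91.7 CPM with Liq (SD, n = 2 each), and the log2 fold change was -1.79 (SE 0.0464, edgeR quasi-likelihood test, Benjamini-Hochberg adjusted p = 2.643e-20). This was the smallest p-value of all tested genes.

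**Figure D1:**
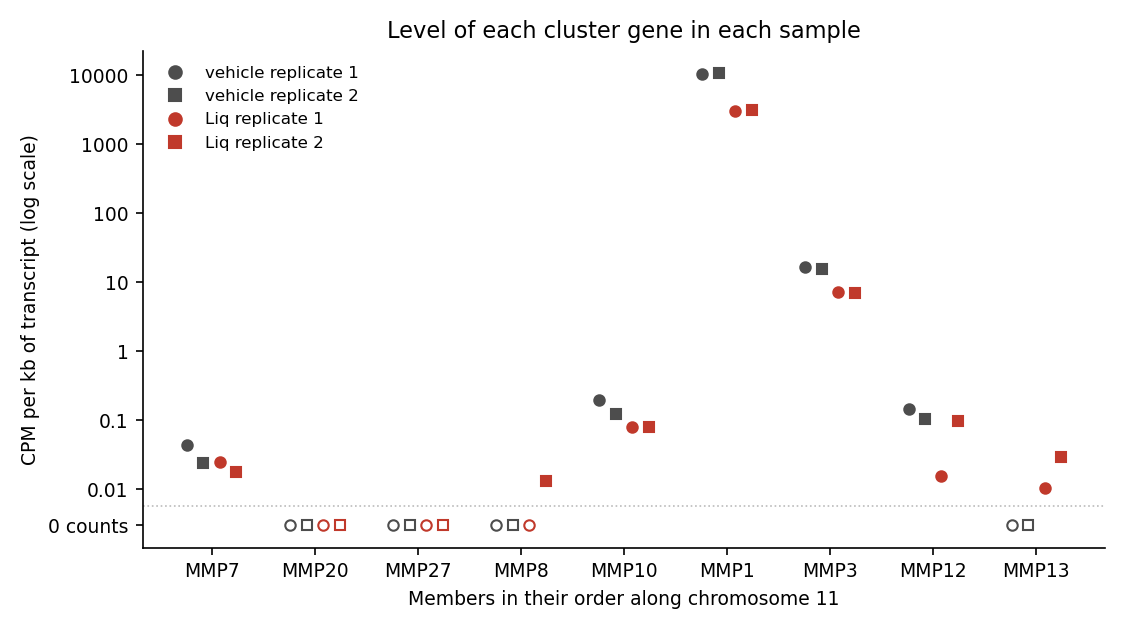
Level of each of the 9 members in each sample, in CPM per kb of transcript on a log scale, with the genes in their order along chromosome 11; open symbols below the dotted line are samples with 0 counts. MMP1 lies at 10512 and 10614 in vehicle and at 3032 and 3098 in Liq, MMP3 lies between 6.92 and 16.7, and no other member exceeds 0.194.

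MMP1 held 2.01% and 2.05% of all gene counts in the vehicle samples, more than any other gene. The next genes there were FN1 (fibronectin, 7902 and 7552 CPM) and VIM (7604 and 7353 CPM). In the Liq samples the share of MMP1 was 0.615% and 0.626%, and MMP1 ranked 3rd and 2nd by CPM. Since long transcripts collect more reads, levels were also divided by transcript length. Per kb, MMP1 was at 10512 and 10614 CPM in vehicle and at 3032 and 3098 CPM in Liq, and among 19542 genes with a length it ranked first in 3 samples and 2nd in Liq replicate 2, behind the ribosomal protein gene RPS18. MMP1 thus remained among the most abundant transcripts after Liq.

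By size alone, the log2 fold change of MMP1 was the 35th most negative of 13546, and the 8th among 9545 genes with a mean of at least 10 CPM. Summed over the 293 genes called lower, 24416 CPM were lost, and MMP1 accounted for 14778 CPM or 60.5% of that sum. The next contributions were 1117 CPM for CTGF, a secreted matricellular protein, and 862 CPM for SERPINB2, an inhibitor of plasminogen activators. A gene was called at a fold change of at least 1.5 with an adjusted p under 0.05. Because a gene of this size can shift the scaling of all others, the fit was repeated without it. The log2 fold change of MMP3 was again -1.19. TMM already leaves the most abundant and most changed genes out of its scaling factor, so this repeat could hardly have differed.

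MMP3, stromelysin-1, had 1254 and 1052 counts in vehicle and 464 and 633 counts in Liq. The corresponding levels were 30.5 and 28.1 CPM against 13.0 and 12.6 CPM, and the groups did not overlap. Mean levels were 29.3 ± 1.7 CPM with vehicle against 12.8 ± 0.308 CPM with Liq (SD, n = 2 each), with a log2 fold change of -1.19 (SE 0.0985, edgeR adjusted p = 9.876e-10). MMP3 ranked 47th by p-value, and its decrease was the 24th largest among the genes with a mean of at least 10 CPM. Per kb of transcript it was at 16.7 and 15.4 CPM in vehicle and at 7.16 and 6.92 CPM in Liq. Both tested members were therefore called lower, against 6.45% of all tested genes called in either direction and 2.16% called lower. With 2 members, this count describes them and says nothing of the cluster as a whole.

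**Figure D2:**
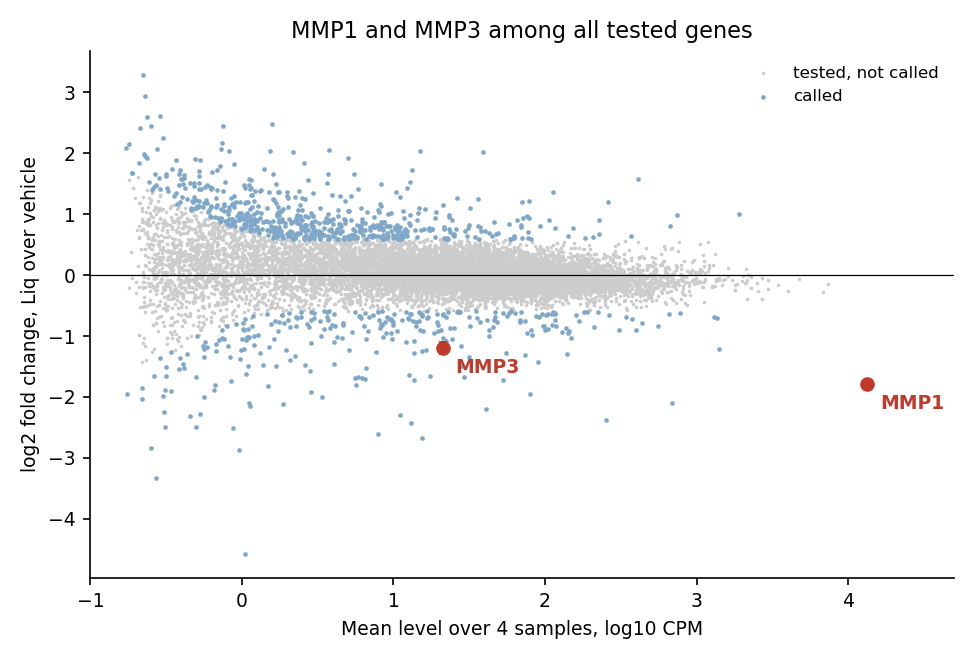
Each point is 1 of 13546 tested genes, with the mean level over 4 samples (log10 CPM) on the horizontal axis and the log2 fold change, Liq over vehicle, on the vertical axis; blue points are called and grey points are not. MMP1, at -1.79, lies to the right of all other genes, and MMP3, at -1.19, lies within the middle range of levels.

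The level of MMP1 was set against those of MMP3 and of the inhibitors of its product. The ratio of MMP1 to MMP3 transcript, per kb, was 628 and 688 in vehicle and 423 and 448 in Liq. Relative to TIMP1, the MMP1 ratio was 20 and 22.9 in vehicle and 7.81 and 8.97 in Liq. Relative to TIMP2 it was 142 and 147 against 38.4 and 40.2, and relative to TIMP3 it was 201 and 208 against 80.5 and 79.2. Every Liq ratio lay below every vehicle ratio, for these inhibitors and also for the membrane-bound MMP14 and the gelatinase MMP2. This restates the decrease of MMP1, since none of the genes it was set against fell as far. With 2 samples against 2, an exact two-sided permutation test of such a ratio cannot go below p = 0.333.

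**Figure D3:**
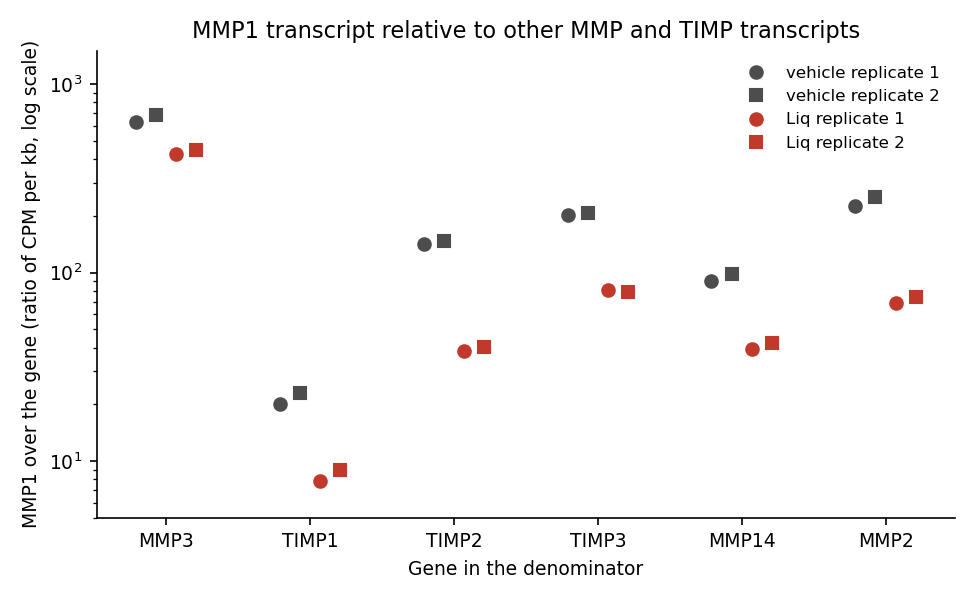
Ratio of the MMP1 level to that of 6 other genes in each sample (ratio of CPM per kb of transcript, log scale). In each pair of groups both vehicle samples lie above both Liq samples, for example 20 and 22.9 against 7.81 and 8.97 for TIMP1.

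The second stromelysin, MMP10 (102641233 to 102651359), had 14 and 8 counts in vehicle and 5 and 7 in Liq. Before TMM scaling, the exact 95% binomial intervals, which cover counting error only, were 0.18 to 0.553 and 0.0903 to 0.412 CPM in vehicle and 0.047 to 0.337 and 0.0575 to 0.295 CPM in Liq. All 4 intervals overlapped. Fitted without the filter on low counts, MMP10 had a log2 fold change of -0.99 (SE 0.65, edgeR adjusted p = 0.331), against 5.23% of 17274 genes called in that fit. A decrease as large as that of MMP3 was thus neither shown nor excluded at this depth.

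The macrophage elastase gene MMP12 (102733467 to 102745712) had 11 and 7 counts in vehicle and 1 and 9 in Liq. After TMM scaling these were 0.268 and 0.187 CPM in vehicle and 0.0281 and 0.179 CPM in Liq, so that both Liq levels lay below both vehicle levels although the raw counts overlapped. Liq replicate 2 was close to vehicle replicate 2, and the exact 95% intervals of all 4 samples overlapped. The log2 fold change without the filter was -0.97 (SE 0.73, edgeR adjusted p = 0.41). MMP10 and MMP12 also could not be ordered by level, since their vehicle values per kb overlapped.

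The remaining collagenases were close to the limit of counting. MMP13 (102813724 to 102826461), collagenase-3, had 0 counts in both vehicle samples and 1 and 4 counts in Liq, and in the fit without the filter it did not pass (edgeR adjusted p = 0.267). MMP8 (102582527 to 102597781), the collagenase of neutrophils, had 2 counts in Liq replicate 2 and none elsewhere (adjusted p = 0.562). The matrilysin gene MMP7 (102391239 to 102401481) had 2 and 1 counts in vehicle and 1 and 1 in Liq (adjusted p = 0.853). Collagenase transcript in ES2 cells was therefore almost wholly that of MMP1.

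MMP20 (102447563 to 102496063) and MMP27 (102562218 to 102576500) had 0 counts in all 4 samples. A count of 0 allows up to 3 counts, or 0.0613 to 0.0868 CPM depending on the sample, and the upper ends of the two-sided exact 95% intervals used for MMP10 were 0.0754 to 0.107 CPM. In vehicle, MMP1 had the highest level per kb and MMP3 the next. MMP10 (0.194 and 0.121 CPM per kb) and MMP12 (0.147 and 0.103) lay above MMP7 (0.0435 and 0.0239), on 14 counts or fewer. MMP8, MMP13, MMP20 and MMP27 had 0 counts in vehicle. No order could be given between MMP10 and MMP12, or among MMP7 and the members with 0 counts.

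Genes beside the cluster were compared with its members. Of 11 listed genes within 1 Mb, 10 were tested, and 1 was called lower and 1 higher. Over all 13546 tested genes, 293 were called lower and 581 higher, or 6.45% in either direction. BIRC3, an inhibitor of apoptosis that is a known NF-kB target, was at 19.1 and 18.5 CPM in vehicle and at 11 and 12.9 CPM in Liq (log2 fold change of -0.65, SE 0.105, edgeR adjusted p = 5.282e-05). Without Liq replicate 1 it was at -0.55, under 1.5-fold. PDGFD, a platelet-derived growth factor, was at 3.77 and 4.38 CPM in vehicle and at 5.68 and 6.5 CPM in Liq (log2 fold change of 0.59, SE 0.144, edgeR adjusted p = 0.00375), and it lost its call in 6 of 11 alternative fits, being at 0.48 without vehicle replicate 1 and also without Liq replicate 2.

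The nearest tested genes on either side were not called. TMEM123 had a log2 fold change of 0.06 at 1025 to 1152 CPM, and DCUN1D5 one of -0.17 at 172 to 206 CPM. BIRC2, another inhibitor of apoptosis, and YAP1, the coactivator of the Hippo pathway, had log2 fold changes of -0.02 and -0.06. TRPC6 was at -0.02 and DYNC2H1 at 0.17. KIAA1377 (0.57, adjusted p = 5.048e-05) and C11orf70 (0.55, adjusted p = 1.307e-04) had higher levels with Liq but stayed under 1.5-fold; without Liq replicate 1 they were called, at 0.62 and 0.66, and KIAA1377 was also called without vehicle replicate 2, at 0.69, and with upper-quartile scaling, at 0.60. ANGPTL5 had no count.

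**Figure D4:**
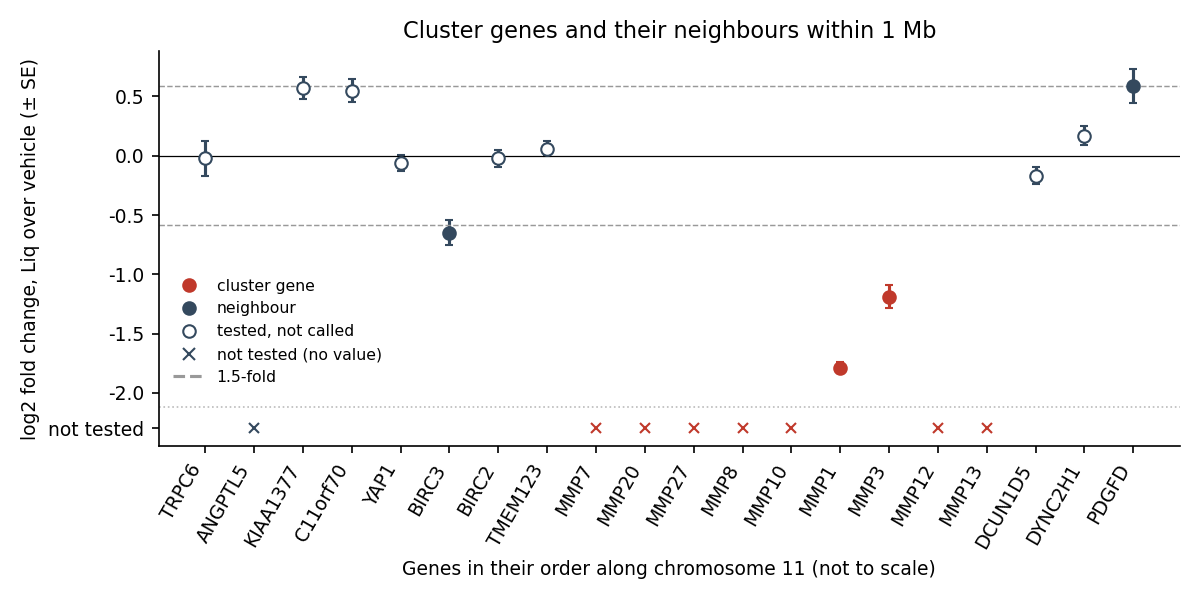
Log2 fold change, Liq over vehicle, with its SE, for the cluster genes (red) and the genes within 1 Mb (dark blue) in their order along chromosome 11, not to scale; filled symbols were called, open symbols were tested and not called, crosses were not tested, and dashed lines mark a 1.5-fold change. MMP1 at -1.79 and MMP3 at -1.19 lie below all tested neighbours, the lowest of which is BIRC3 at -0.65.

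Among the inhibitors and other restraints of MMPs, 7 of 9 genes were tested, and 2 were called lower and none higher. Of all tested genes, 2.16% were called lower. The median log2 fold change of the list was -0.43 (0.01 over all tested genes). THBS1 and THBS2, thrombospondins that bind MMPs and aid their clearance, fell (log2 fold change of -0.62 and -1.14). THBS2 was at only 0.925 CPM in vehicle and lost its call in 3 of 11 alternative fits (-0.97 without vehicle replicate 1 and -1.04 without Liq replicate 2). THBS1 lost it without Liq replicate 1, at -0.58. TIMP1, the classical inhibitor of MMP1, was at 404 and 357 CPM in vehicle and at 299 and 266 CPM in Liq (log2 fold change of -0.43, SE 0.0734, edgeR adjusted p = 9.778e-05), a difference under 1.5-fold. TIMP3 likewise was at -0.43 (adjusted p = 4.482e-05), and TIMP2 was at 0.10 (adjusted p = 0.318). RECK, a membrane-anchored inhibitor, and LRP1, an endocytic receptor that clears MMPs, were at 0.43 and 0.47, again under 1.5-fold, although LRP1 was called without vehicle replicate 1, at 0.60. TIMP4 had no count, and A2M (alpha-2-macroglobulin) had 10 counts or fewer per sample and was not tested.

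Of 13 genes for the activation of pro-MMPs and its regulators, 10 were tested, with a median of -0.24. Of these, 2 were called lower and none higher, against 2.16% of all tested genes called lower. PLAT, the tissue plasminogen activator, fell from 1692 ± 73.6 to 1043 ± 48.7 CPM (SD, n = 2 each; log2 fold change of -0.70, edgeR adjusted p = 1.584e-09). SERPINB2, which inhibits plasminogen activators, fell from 1132 and 1116 CPM to 253 and 272 CPM (-2.10, adjusted p = 6.857e-19). An activator and an inhibitor of the plasmin system were thus both lower. PLAU, the urokinase, was at -0.38 and its receptor PLAUR at -0.49, both under 1.5-fold.

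Among 16 genes of matrix substrates, 8 were tested, with a median of 0.23. TNC was called lower (-0.61) and LAMA3 higher (0.75), against 6.45% of all tested genes called in either direction. LAMA3 encodes a laminin chain of the basement membrane. TNC encodes tenascin-C, and its call was lost in 2 of 11 alternative fits, at -0.56 without vehicle replicate 1 and at -0.58 with upper-quartile scaling. Of the fibrillar collagens that MMP1 cuts, COL1A1 was at 1204 CPM with vehicle against 1356 CPM with Liq, whereas COL1A2 had 7 counts or fewer and COL3A1 1 count or none per sample.

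All 27 genes for factors known to bind MMP promoters were tested, with a median of -0.14. Of these, 5 were called lower and none higher, against 2.16% of all tested genes called lower. The AP-1 subunits FOSB (-0.93), JUNB (-0.86) and FOS (-0.80) fell and kept their calls in all 11 alternative fits. The most abundant AP-1 subunits were not called: FOSL1, at 613 CPM in vehicle, had a log2 fold change of -0.12 (adjusted p = 0.212), and JUN, at 379 CPM, had one of -0.03 (adjusted p = 0.756). FOS was at 3.41 CPM and FOSB at 7.04 CPM in vehicle. ETV4, an ETS factor of the PEA3 group, was lower (-0.60), as was RELB, an NF-kB subunit (-0.61); these calls were lost in 3 and 2 of 11 alternative fits. ETV4 was at -0.54 without vehicle replicate 1 and at -0.55 without Liq replicate 2, and RELB was at -0.56 without Liq replicate 1.

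Of 23 secreted inducers of MMP genes and their receptors, 18 were tested, with a median of -0.03. Of these, 3 were called lower and none higher, against 2.16% of all tested genes called lower. IL1B, the cytokine interleukin-1 beta, fell from 427 and 418 CPM to 82.0 and 80.7 CPM (log2 fold change of -2.38, SE 0.0708, edgeR adjusted p = 4.243e-19). EREG, epiregulin, a ligand of the EGF receptor, fell from 44.1 and 46.3 CPM to 16.8 and 18.7 CPM (-1.34, adjusted p = 3.225e-11). PDGFB was lower (-0.66, adjusted p = 0.023), a call lost in 4 of 11 alternative fits, with values of -0.77 without vehicle replicate 1, -0.55 without vehicle replicate 2 and -0.56 without Liq replicate 1. The IL-1 receptor gene IL1R1 (0.38) and EGFR (-0.01) did not pass. TNF had 2 counts in 1 Liq sample and none elsewhere.

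The 14 MMP genes listed outside the cluster were mostly low. Of these, 9 were tested and none was called lower. The 2 called higher were MMP17 (0.66, edgeR adjusted p = 4.920e-04) and MMP11 (0.61, adjusted p = 0.0124), at 4.85 and 2.22 CPM in vehicle. Of all 13546 tested genes, 581 were called higher. The MMP11 call was lost in 3 of 11 alternative fits, being at 0.54 without vehicle replicate 2 and at 0.49 without Liq replicate 2. MMP14, an activator of pro-MMP2 at the cell surface, was at 415 CPM with vehicle against 279 CPM with Liq (-0.58, adjusted p = 3.757e-07), just under 1.5-fold. MMP2 was at 157 and 150 CPM (-0.06, adjusted p = 0.578). MMP9, the other gelatinase, had 2 counts or fewer per sample. Per kb, MMP1 exceeded MMP14 by 90.7 and 97.8 times in vehicle and by 39.2 and 42.4 times in Liq.

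**Figure D5:**
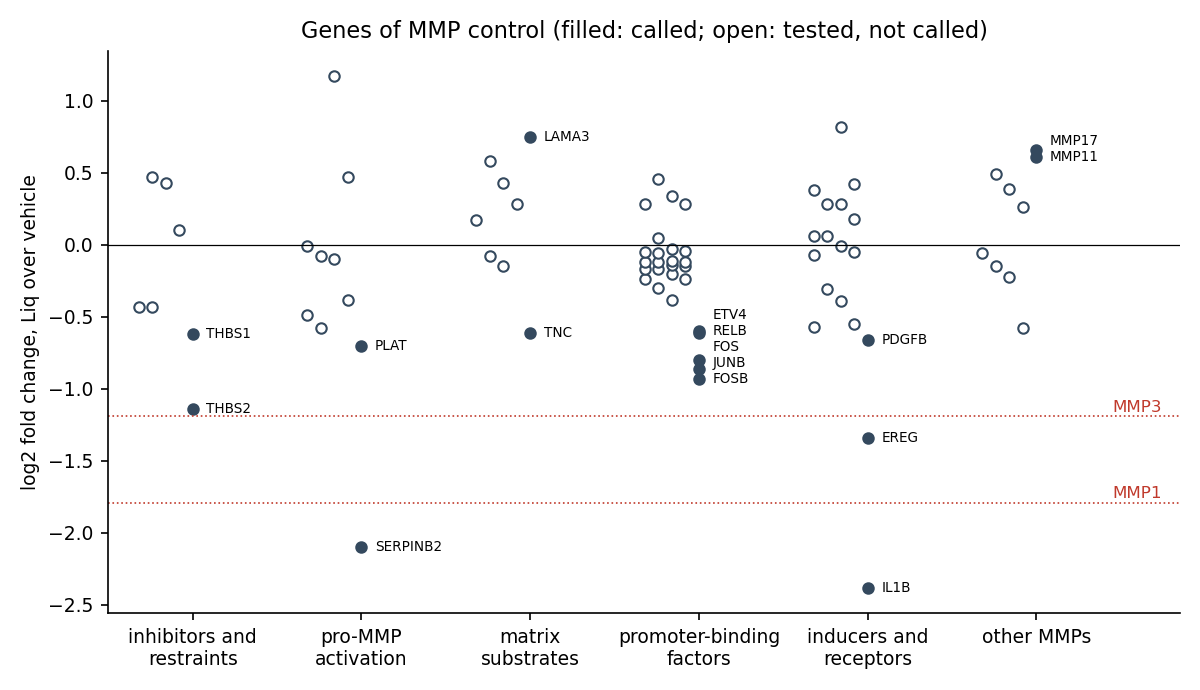
Log2 fold change, Liq over vehicle, of the tested genes of 6 lists (filled circles were called, open circles were not), with dotted lines at the values of MMP1 and MMP3. IL1B at -2.38 and SERPINB2 at -2.10 lie below the MMP1 line, and EREG at -1.34 lies between both lines.

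The genes whose pattern over the 4 samples was most like each member were found by the root mean squared difference of log2 CPM, each gene centred on its own vehicle mean. For MMP1 these were CASS4 (0.056), BCL2A1 (0.058), KRT15 (0.084), EGR2 (0.1) and ISG20 (0.106). For MMP3 they were CSRNP1 (0.035), TRPM2 (0.043), CTGF (0.052), CYP1B1 (0.060) and CSF1R (0.064). All 10 were called lower, which follows from the measure, and none lies on chromosome 11. With 4 samples in 2 groups the measure reads mainly the size of the fold change. CYP1B1 and CSF1R were below 1 CPM and lost their calls in 4 and 2 of 11 alternative fits. CYP1B1 was at -1.19 without vehicle replicate 1, -1.24 without vehicle replicate 2 and -1.22 without Liq replicate 2, and CSF1R was at -1.19 without vehicle replicate 1.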

How the data were processed

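Total RNA was isolated from 4 samples, and the libraries made from it were sequenced as 100-base single reads. The labels name both a TruSeq RNA and a TruSeq Total RNA guide, so the type of library is not settled. The authors deposited raw read counts per gene, 1 table per sample; the submitters' processing notes name bcl2fastq 2.17.1.14, TopHat2 2.0.8b and HTSeq and the build hg19, and the strand setting was not given in the sources used here. Entries that HTSeq did not assign to a gene were left out. Its tally of alignments that were not unique made up 35.63 to 36.23% of all its entries, which need not equal a share of reads. Genes with low counts were removed with filterByExpr (minimum count 10, minimum total 15), and vehicle and Liq were compared with edgeR 4.0.16 (TMM scaling, quasi-likelihood F-test, Benjamini-Hochberg adjustment over all tested genes; R 4.3.3). The SE is the absolute log2 fold change divided by the square root of F. Profile likeness used a prior count of 2. The method was tested on simulated data without a replicate effect. Changes were placed only in well-counted genes, so that test does not cover the low members. Genes named were all members, the called genes of each list (up to 6), the inhibitors and flanking genes, and the 5 nearest profiles; other genes were added after their values were seen. Members and lists were chosen with earlier results of these data known. From the lists, 2 genes are not reported here. Positions and lengths are from GENCODE on GRCh37, matched by symbol for 84.1% of listed genes. Alternatives were other scalings, other filters, DESeq2 1.42.0, a replicate block, leaving out each sample, other thresholds and, chosen after seeing the data, leaving out MMP1.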

Additional observations from a re-analysis of the deposited data

How the results depend on the processing

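MMP1 and MMP3 were called lower under every alternative run on them. Log2 fold changes were -1.80 to -1.76 for MMP1 over 10 alternatives and -1.25 to -1.13 for MMP3 over 11. The size of the p-value depended on the model. For MMP1 the adjusted p was 6.38e-16 with upper-quartile scaling (edgeR) and 4.83e-174 with the DESeq2 Wald test. The count of all tested genes called was 874, and it moved to 566 with the DESeq2 Wald test and to 328 with a fold change of at least 2; leaving out 1 sample gave 659 to 979. With a replicate block, 898 genes and both members were called. The labels give the groups the same replicate numbers. Deviations of same-numbered samples had a correlation of 0.0483 across all tested genes, with low and high counts weighted alike. With the block, the SE was 0.0278 against 0.0464 for MMP1 and 0.0804 against 0.0985 for MMP3. Some well-counted genes differed between replicates 1 and 2 in the same direction in both groups. TIMP1 was at 404 and 357 CPM in vehicle and at 299 and 266 CPM in Liq, and PLAT at 1744 and 1640 against 1078 and 1009. Others did not, such as PDGFA, at 34.7 and 35.9 CPM in vehicle and 25.6 and 21.9 CPM in Liq. What same-numbered samples share beyond a number is not stated in the labels and was not tested. Some neighbours with values near 0 changed sign. With upper-quartile scaling, BIRC2 and TRPC6 were each at 0.01. Leaving out 1 sample gave -0.14 to 0.02 for YAP1, -0.11 to 0.07 for BIRC2, -0.02 to 0.14 for TMEM123 and -0.07 to 0.03 for TRPC6. The cause was not tested. The leukocyte marker LYZ, called lower, lost its call in 6 of 10 alternatives, with -1.48 to -1 when 1 sample was left out. The call of PDGFD was also lost with the replicate block. When 1 sample is left out, the lone sample of its group is assumed to vary like the other group. Depth limits MMP7, MMP8, MMP10, MMP12 and MMP13, for which no change was detectable.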
